A study of Mus musculus with 6 samples.

Results

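A set of 10 genes of corticosteroid signalling was followed in the lateral septum of mice on a long-term olanzapine diet. They were chosen by symbol as the pair of corticosteroid receptors (Nr3c1 and Nr3c2), an enzyme that activates the hormone (Hsd11b1) and 7 genes known to respond to glucocorticoids (Fkbp5, Sgk1, Tsc22d3, Zbtb16, Pdk4, Cdkn1a and Plin4). All 10 were among the 35415 genes of the deposited tables, and all 10 passed the low-count filter that left 17255 genes for testing. Wild-type female C57BL/6 mice, about 8 weeks old on arrival, were acclimated for 1 week and then fed for 12 weeks either maintenance chow, the control group, or the same chow containing 50 mg olanzapine per kg, the olanzapine group, which the labels call MetS. Micro-dissected septal tissue from 3 mice was pooled for each RNA-seq library, with 3 such pools for either diet (n = 3), and how far single mice vary cannot be seen. The counts on genes summed to between 38208153 and 39868872 per library.

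Glucocorticoids, mainly corticosterone in mice, are released from the adrenal gland under the daily rhythm and under stress, and they reach the brain from the blood. In cells they bind the mineralocorticoid receptor, which holds the hormone at low resting levels, and the glucocorticoid receptor, which fills at the daily peak and under stress. The bound receptors move to the nucleus and change transcription at glucocorticoid response elements, short palindromes in DNA. The lateral septum receives dense input from the hippocampus, projects to the hypothalamus, and takes part in the control of feeding and of stress responses.

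The response element can be seen in the promoter of Sgk1, which encodes a serum and glucocorticoid regulated kinase of ion channels and transporters. The sequence is shown because it carries the full palindrome, AGAACA, any 3 bases and TGTTCT, which 3 of 32851 promoter windows of the RefSeq table (GRCm38.p6, 250 bases before to 50 after each start site) contained, or 0.00913%. The letters read the same on both strands, so 1 search covers both. The 250 bases before this Sgk1 start site, chr10:21993640-21993889 on the plus strand, are given 5′ to 3′ with the palindrome in capitals, at chr10:21993701-21993715 and beginning 189 bases before the start site.
Sgk1: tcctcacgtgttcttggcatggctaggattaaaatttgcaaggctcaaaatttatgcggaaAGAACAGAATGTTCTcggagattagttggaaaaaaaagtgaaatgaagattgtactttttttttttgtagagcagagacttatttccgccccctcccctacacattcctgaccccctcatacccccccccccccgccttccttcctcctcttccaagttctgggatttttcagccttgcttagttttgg

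A looser form, with G, any base, ACA, any 3 bases, TGT, any base and C, which lies inside the full one, was found in 156 windows, or 0.475%, and in 145 of the 27025 genes with a window, or 0.537%. Windows were listed for 8 of the 10 genes, without Nr3c1 and Zbtb16, and Sgk1 was the 1 of these 8 with a match. Sgk1 has 6 listed start sites, and the match lies before 1 of them, which gene-level counts do not separate. Among 26 other glucocorticoid-response genes, listed further on, 23 had a window and 3 had a match, namely Map3k6 (chr4:133240629-133240657, plus strand), Mt1 (chr8:94178987-94179015, plus strand) and Fam107a (chr14:8309877-8309905, minus strand). Their sites are shown with 8 bases on either side and the match in capitals, so that they can be set beside that of Sgk1.
Map3k6: gaatagggGCACAGGCTGTTCcggaagtg
Mt1: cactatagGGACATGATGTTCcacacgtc
Fam107a: ggtggcttGGACATGGTGTTCtgagtctc
A match is a description of these letters, and many receptor sites lie outside such short windows.

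The 10 genes were detected in every pool, with the lowest count, 354, in Hsd11b1. On the FPKM scale, which is per length and so allows genes to be compared, the mean level over the 6 pools was highest in Sgk1 (41.4) and Tsc22d3 (32.5). Fkbp5 and Cdkn1a (12.6 each) and Nr3c1 (10.5) followed, then Hsd11b1 (6.996), Pdk4 (5.92), Nr3c2 (5.69), Plin4 (4.97) and Zbtb16 (4.64). Only 2 steps in this order were clear of the spread between pools, with no overlap of the 6 values on either side, from Tsc22d3 to Fkbp5 and from Nr3c1 to Hsd11b1. In each of the other 7 steps the ranges of the neighbours overlapped.

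The log2 fold changes of all 7 response genes and of Hsd11b1 were above 0 and those of both receptors below 0. Zbtb16 and Cdkn1a had all 3 olanzapine pools above the highest control, both receptors were lower in all 3, and the other 6 genes overlapped between the groups. In the quasi-likelihood test of edgeR, adjusted by Benjamini-Hochberg over all 17255 genes, 0 of the 10 passed an adjusted p under 0.05, a level that 401 genes, or 2.32%, passed (1.83% higher and 0.493% lower). With a fold above 2 as well, 0 of the 10 passed, beside 1.01% of all genes, 0.95% higher and 0.058% lower. An unadjusted p under 0.05 was reached by 4 of the 10, the receptors lower and Zbtb16 and Cdkn1a higher, where 17.6% of all genes reached it, 9.19% higher and 8.4% lower. The 4 genes without overlap between the groups stand beside 24.4% of all genes, 13.3% with the olanzapine pools above and 11% with them below. DESeq2, run on the same counts, passed 2 of the 10, Zbtb16 and Cdkn1a, beside 5.73% of the 19070 genes to which it gave an adjusted p. The same 2 passed in edgeR with no count filter, beside 1.76% of 26020 genes. With limma on log2(FPKM + 1) 0 of the 10 passed, beside 1.94% of 17370 genes. Over the 10 genes the log2 fold change had a median of 0.16, beside 0.0039 for all tested genes, and 8 of the 10 were above 0, beside 50.7% of all genes. With 3 pools against 3, the exact permutation test of a single gene cannot give a p below 0.1, and the 4 genes without overlap were at this smallest value.

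**Figure D1:**
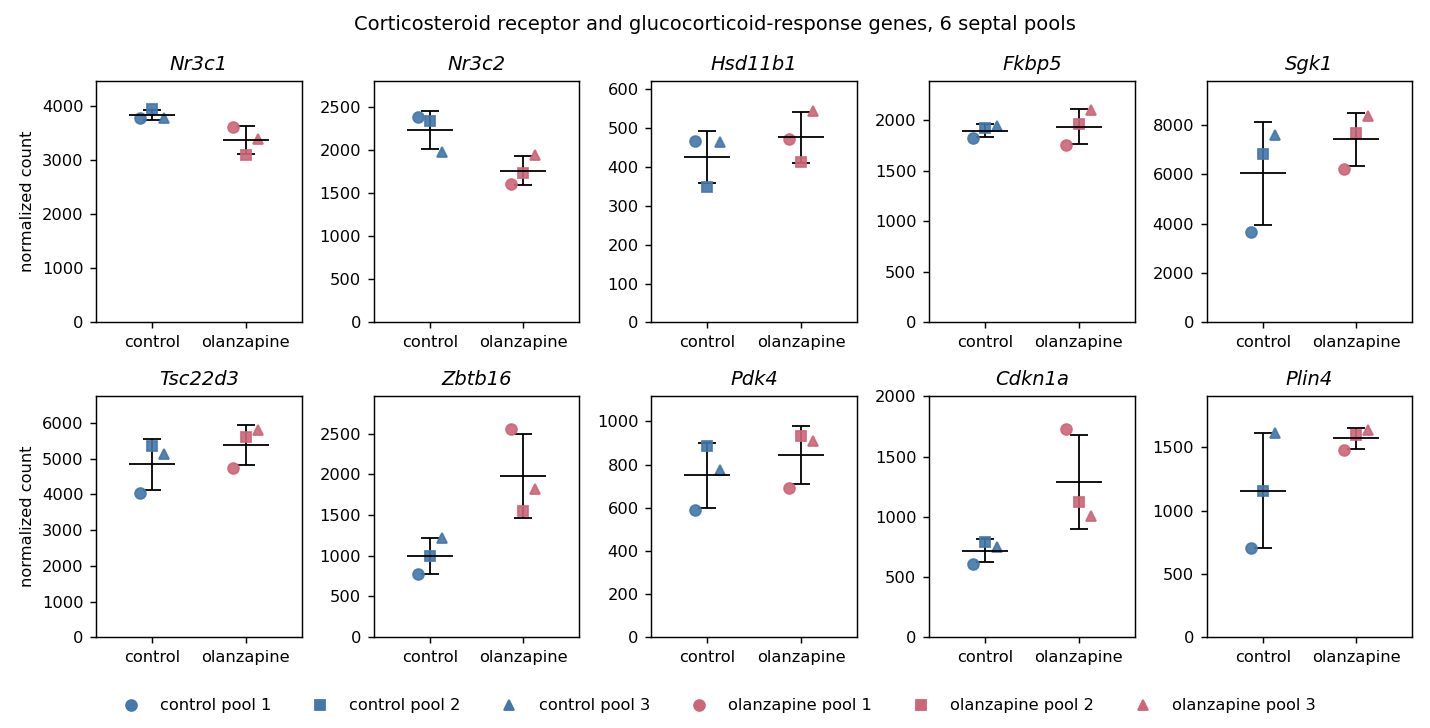
Normalized counts of the 10 genes in each of the 6 pools, with 1 panel per gene and the y axis from 0. Bars are the mean ± SD of 3 pools, and the marker shape gives the pool number, which is not stated to pair control with olanzapine pools. Zbtb16 and Cdkn1a lie higher and Nr3c1 and Nr3c2 lower in all olanzapine pools, while Sgk1, Tsc22d3, Pdk4 and Plin4 have their lowest value in control pool 1.

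Nr3c1 (ENSMUSG00000024431.15), the glucocorticoid receptor, spans 39410545 to 39519421 on the minus strand of chromosome 18 of GRCm38. The pools gave normalized counts of 3785, 3945 and 3774 in pools 1 to 3 on control feed, against 3613, 3096 and 3400 in pools 1 to 3 on olanzapine feed. The olanzapine pools all lay below the control pools and spread more widely. The group means were 3835 ± 95.7 (SD, n = 3 pools) and 3370 ± 260 (SD, n = 3), and the log2 fold change was -0.19 ± 0.08 (SE), with a 95% interval from -0.36 to -0.01 (edgeR's quasi-likelihood test, unadjusted p = 0.0389, Benjamini-Hochberg adjusted p = 0.251).

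Nr3c2 (ENSMUSG00000031618.13), the mineralocorticoid receptor, spans 76899442 to 77245012 on the plus strand of chromosome 8. Pool by pool, the normalized counts were 2385, 2337 and 1973 on control feed, against 1608, 1738 and 1938 on olanzapine feed. Control pool 3 and olanzapine pool 3 nearly met, and the widest distance lay between control pool 1 and olanzapine pool 1. The group means were 2232 ± 225 (SD, n = 3) and 1762 ± 166 (SD, n = 3), with a log2 fold change of -0.34 ± 0.10 (SE) and a 95% interval from -0.58 to -0.11 (edgeR, unadjusted p = 0.0101, adjusted p = 0.141). An antisense long noncoding gene, Gm10649, shares 247 exonic bases with Nr3c2, and since the strand setting of the counting is not given in the sources used here, reads there cannot be told apart. Gm10649 itself had between 23 and 42 counts per library.

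The balance of the receptors, taken as the FPKM of Nr3c1 over that of Nr3c2 in each pool, was 1.63, 1.73 and 1.96 on control feed, against 2.30, 1.83 and 1.80 on olanzapine feed. The groups overlapped, with olanzapine pool 1 the highest. Means were 1.77 ± 0.17 (SD, n = 3) and 1.98 ± 0.28 (SD, n = 3), a difference within the spread of the pools (exact permutation test, two-sided, p = 0.4). In bulk tissue, fewer cells of a type and less RNA per cell cannot be told apart. Beside the lower receptor counts, the summed normalized count of 6 astrocyte markers ranged from 159800 to 182000 on control feed, against 129700 to 152300 on olanzapine feed, and that of 8 lateral septum neuron markers from 84110 to 109300 and from 66610 to 91410, with none of these markers at 0. Slc1a2, the main glutamate transporter of astrocytes, made up most of the astrocyte sum, with means of 106800 and 85730. Of the 6 astrocyte markers 2 lay wholly below, and Aldh1l1 had a log2 fold change of 0.10, and of the 8 neuron markers 2 lay wholly below, beside 11% of all tested genes. In edgeR, 3 of the former and 4 of the latter had an unadjusted p under 0.05, all lower, beside 8.4% of all tested genes. An adjusted p under 0.05 was reached by 0 of them, beside 2.32% of all tested genes. Their part in the receptor values was not tested.

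Hsd11b1 (ENSMUSG00000016194.14, chromosome 1, 193221634 to 193264075, minus strand) encodes the enzyme that regenerates active corticosterone from its inert 11-keto form inside cells. In normalized counts, the pools stood at 467, 350 and 464 on control feed, against 471, 413 and 545 on olanzapine feed. The groups overlapped, with olanzapine pools 1 and 3 the highest of the 6 and control pool 2 the lowest. The log2 fold change was 0.16 with a 95% interval from -0.22 to 0.53 (edgeR, adjusted p = 0.664). It was 0.04 without control pool 2 and 0.05 without olanzapine pool 3, and 0.25 without olanzapine pool 2. The opposing enzyme, Hsd11b2, which inactivates corticosterone in the kidney and other mineralocorticoid target tissues, had at most 1 count in any library and could not be tested.

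Zbtb16 (ENSMUSG00000066687.5, chromosome 9, 48654297 to 48836222, minus strand) encodes a zinc finger repressor of transcription and had the largest ratio of highest to lowest pool among the 10 genes, 3.29. Its normalized counts were 777.4, 996.2 and 1212 on control feed, against 2556, 1553 and 1823 on olanzapine feed. Every olanzapine pool lay above every control pool, and olanzapine pool 1 stood highest. The group means were 995 ± 218 (SD, n = 3) and 1977 ± 520 (SD, n = 3), a log2 fold change of 0.99 ± 0.21 (SE), with a 95% interval from 0.50 to 1.48. The adjusted p from edgeR's quasi-likelihood test was 0.0576, just short of the threshold, at an unadjusted p of 0.0016. It ranged from 8.79e-05 to 0.193 over the 17 alternatives, and it was under 0.05 with DESeq2 and, at 0.0236, with no count filter.

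Cdkn1a (ENSMUSG00000023067.14, chromosome 17, 29090976 to 29100727, plus strand) encodes p21, an inhibitor of cyclin-dependent kinases that p53 also induces. The pools gave normalized counts of 612, 794 and 752 on control feed, against 1733, 1126 and 1006 on olanzapine feed. The groups did not overlap, and olanzapine pool 1 was again far above the other pools. Means were 719 ± 95.4 (SD, n = 3) and 1288 ± 390 (SD, n = 3), with a log2 fold change of 0.84 ± 0.21 (SE) and a 95% interval from 0.37 to 1.31 (edgeR, unadjusted p = 0.00343, adjusted p = 0.0863). Over the alternatives the adjusted p ranged from 0.00175, with DESeq2, to 0.245, and with no count filter it was 0.0486. An antisense transcript of the annotation shares 273 exonic bases with Cdkn1a and was not analysed here.

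Olanzapine pool 1 stood apart in its makeup. The summed normalized count of 6 markers of cortical glutamatergic neurons was 34310 there and between 1070 and 3634 in the other 5 pools, and that of 7 immediate early genes was 36890 against 13990 to 22350. The immediate early genes also had sums of 13990 to 19800 on control feed and 19920 to 36890 on olanzapine feed, which nearly met but did not overlap. All 7 log2 fold changes were above 0, beside 50.7% of all tested genes. The olanzapine pools lay wholly above in 4 of the 7, beside 13.3%. Of these 7, 1 was called higher, beside 1.83% of all tested genes. It was Npas4, an activity-induced transcription factor (log2 fold change 1.14, edgeR, adjusted p = 0.0155). No marker of either list was at 0 in all pools, and their part in the values of the 10 genes was not tested. Without olanzapine pool 1, the log2 fold change was 0.76 for Zbtb16 (edgeR, adjusted p = 0.0513) and 0.57 for Cdkn1a (adjusted p = 0.0607), so both genes kept their direction at smaller sizes. Control pool 1 was at the other end for both, and without it the log2 fold changes were 0.84 (adjusted p = 0.175) and 0.74 (adjusted p = 0.245).

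**Figure D2:**
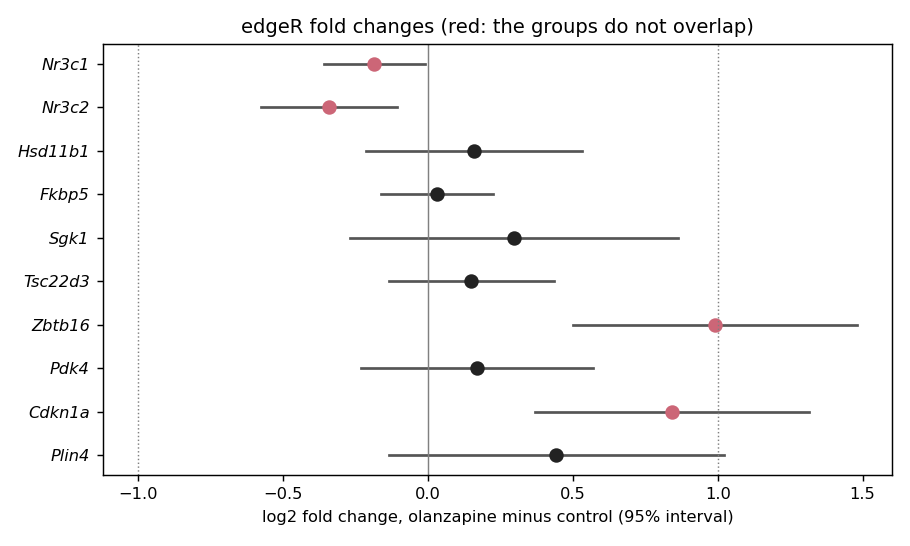
Log2 fold change of each of the 10 genes, olanzapine minus control, from edgeR, with lines for the 95% interval. Red points mark genes whose groups do not overlap and dotted lines mark log2 values of -1 and 1. The intervals of Nr3c1, Nr3c2, Zbtb16 and Cdkn1a lie clear of 0 before adjustment for multiple tests, and the other 6 cross it.

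Fkbp5 (ENSMUSG00000024222.17, chromosome 17, 28399094 to 28517527, minus strand) encodes a co-chaperone that lowers the hormone affinity of the glucocorticoid receptor and is itself one of the most responsive targets of that receptor. Pool by pool, the normalized counts were 1824, 1926 and 1938 on control feed, against 1750, 1958 and 2101 on olanzapine feed. The highest pool was 1.20 times the lowest, the smallest such ratio among the 10 genes, and both pools numbered 1 lay below the other 4. The log2 fold change was 0.03 with a 95% interval from -0.16 to 0.22 (edgeR, adjusted p = 0.887), and it was 0.0016 without control pool 1, 0.10 without olanzapine pool 1 and -0.03 without olanzapine pool 3.

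Sgk1 (ENSMUSG00000019970.15, chromosome 10, 21882184 to 21999903, plus strand), whose promoter element is printed above, had normalized counts of 3666, 6820 and 7593 on control feed, against 6225, 7645 and 8336 on olanzapine feed. Control pool 1 was far below the other 5, among which the groups overlapped. The log2 fold change was 0.30 ± 0.25 (SE), with a 95% interval from -0.27 to 0.86 (edgeR, adjusted p = 0.576). Without control pool 1 it was 0.04 (adjusted p = 0.930), and without control pool 3 it was 0.51 (adjusted p = 0.418).

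Plin4 (ENSMUSG00000002831.13, chromosome 17, 56100591 to 56109803, minus strand), a coat protein of lipid droplets, had normalized counts of 703, 1154 and 1611 on control feed, against 1480, 1598 and 1637 on olanzapine feed. The olanzapine pools lay close together while the control pools were spread widely. The log2 fold change was 0.44 with a 95% interval from -0.14 to 1.02 (edgeR, adjusted p = 0.404), and it was 0.18 without control pool 1 and 0.77 without control pool 3. Plin4 shares 17 exonic bases with the antisense gene Hdgfl2, which had 2690 to 3397 counts per library.

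Tsc22d3 (ENSMUSG00000031431.13, chromosome X, 140539528 to 140600659, minus strand) encodes GILZ, a leucine zipper protein that carries part of the anti-inflammatory action of glucocorticoids. It had normalized counts of 4039, 5365 and 5142 on control feed, against 4735, 5601 and 5797 on olanzapine feed. Pool 1 of either group was the lowest of its group. The log2 fold change was 0.15 with a 95% interval from -0.14 to 0.43 (edgeR, adjusted p = 0.576). It was 0.03 without control pool 1 and 0.09 without olanzapine pool 3, and 0.23 without control pool 2 or olanzapine pool 1.

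Pdk4 (ENSMUSG00000019577.6, chromosome 6, 5483351 to 5496309, minus strand) encodes a kinase that shuts off pyruvate dehydrogenase and so turns cells from glucose to fatty acids. Its normalized counts of 591, 888 and 774 on control feed, against 689, 934 and 909 on olanzapine feed, kept the order of pools seen in Tsc22d3 at the low end, with both pools numbered 1 below the other 4. The log2 fold change was 0.17 with a 95% interval from -0.23 to 0.57 (edgeR, adjusted p = 0.665). It was 0.02 without control pool 1 and 0.09 and 0.11 without olanzapine pools 2 and 3, and 0.31 without control pool 2 and 0.29 without olanzapine pool 1.

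The response genes differed in which pools were high and low. Zbtb16 and Cdkn1a were lowest in control pool 1 and highest in olanzapine pool 1. Sgk1, Plin4, Tsc22d3 and Pdk4 were lowest in control pool 1 too, but in olanzapine pool 1 they were at 0.18 or less above their 6-pool mean on the log2 CPM scale, and Sgk1, Tsc22d3 and Pdk4 were below it. Fkbp5 kept within 0.14 of its mean and, like Tsc22d3 and Pdk4, had both pools numbered 1 below the other 4. Control pool 1 was the lowest pool in 6 of the 7 response genes and in 14 of the 26 other glucocorticoid-response genes, which is 85.7% and 53.8%, while it was the lowest pool in 16.7% of all tested genes. Olanzapine pool 3 was the highest pool in 4 of the 7 and in 10 of the 26, beside 17% of all tested genes. These pools were singled out after their values were seen. They also had the least choroid plexus RNA. The summed normalized count of 6 markers was 3937 in control pool 1 and 2557 in olanzapine pool 3, against 44340 to 287100 elsewhere. The sum of 5 striatal neuron markers was lowest in both pools numbered 1, at 28800 (control) and 30100 (olanzapine). Pools 2 and 3 had 49970 and 37990 on control feed, against 62620 and 59350 on olanzapine feed. Sgk1, Fkbp5, Tsc22d3 and Pdk4 were also lowest in both pools numbered 1, Pdk4 with all 6 pools in the striatal order. Plin4 was not, and Zbtb16 and Cdkn1a were highest in olanzapine pool 1. The part of either sum in the pattern was not tested.

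**Figure D3:**
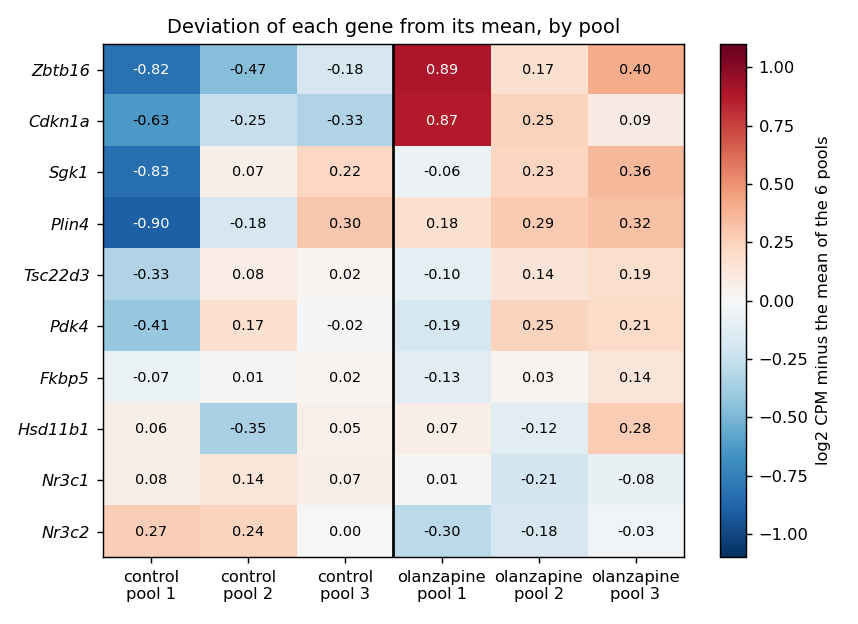
Deviation of each gene from its mean over the 6 pools on the log2 CPM scale, printed in each cell and coloured from blue (lower) to red (higher), with the control pools left of the black line. Control pool 1 is low for Zbtb16, Cdkn1a, Sgk1, Plin4, Tsc22d3 and Pdk4, and olanzapine pool 1 is 0.89 above the mean for Zbtb16 and 0.87 for Cdkn1a, beside 0.18 or less for the other 8 genes.

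Genes whose log2 CPM was most like that of the 3 genes with the largest SD of log2 CPM over the pools were sought among 14278 other genes with a mean of at least 50 counts. For Zbtb16 they were Plpbp (Pearson's r = 0.993), Aif1 (0.992) and Gnl3 (0.989), for Cdkn1a Zfp934 (0.995), Parp1 (0.995) and Gm32404 (0.994), and for Plin4 Csgalnact2 (0.989), Cox6a1 (0.986) and Gt(ROSA)26Sor (0.983). These are descriptions over 6 pools that share their libraries, in 2 groups, and many genes come as close, since r was above 0.9 for 337 genes with Zbtb16, 427 with Cdkn1a and 110 with Plin4. The log2 fold changes of the 9 genes lay between 0.099 (Cox6a1) and 1.09 (Gm32404), all smaller than that of their partner except for Gm32404, and none had an adjusted p under 0.05 from edgeR.

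The wider pathway was described with lists written from general knowledge, but with earlier results of these data known. Counts within a list are therefore descriptions and not an independent test. Of 26 other glucocorticoid-response genes, all could be tested, and 4 rose and 0 fell at an adjusted p under 0.05 in edgeR, DESeq2 and limma alike, beside, in edgeR, 1.83% and 0.493% of all tested genes. The 4 were Lcn2, Tat, Pck1 and Igfbp1. The median log2 fold change of all 26 was 0.08, unchanged with Igfbp1 set to its bound, and that of the 22 genes not called was 0.06, in a range from -0.33 for Angptl4 to 0.53 for Map3k6.

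Lcn2, a secreted iron-carrier binding protein of the acute phase, had normalized counts of 6.995, 8.885 and 9.914 on control feed, against 68.0, 89.9 and 102 on olanzapine feed. Its log2 fold change was 3.31 ± 0.34 (SE, edgeR, adjusted p = 0.00359). Pck1, which encodes an enzyme of gluconeogenesis, had 3.00, 10.9 and 2.97 on control feed, against 137, 174 and 139 on olanzapine feed, a log2 fold change of 4.71 (adjusted p = 0.00314). In both genes the groups lay far apart beside the spread within either of them.

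Tat, the tyrosine aminotransferase of liver, had 8.99, 26.7 and 26.8 normalized counts on control feed, against 130.9, 123.5 and 118.6 on olanzapine feed, a log2 fold change of 2.57 (edgeR, adjusted p = 0.0190). Igfbp1, a liver binding protein of insulin-like growth factors, had 0 counts in every control pool and 29.9, 19.8 and 36.2 normalized counts on olanzapine feed, which is at least 9.61-fold higher against a floor of 3 counts per library (adjusted p = 0.0207). The calls for Tat and Igfbp1 were lost without control pool 2 or 3 and without olanzapine pool 2 or 3, and that of Igfbp1 also without control pool 1, so that 2 or 3 of the 4 calls were left. With the replicate number as a block, Lcn2 and Pck1 were called.

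Pck1, Tat and Igfbp1 are genes of liver cells, and hepatocyte markers moved with them. The summed normalized count of 8 hepatocyte markers, none of them at 0 in all pools, ranged from 383 to 768 on control feed, against 8337 to 10440 on olanzapine feed, all 8 with the olanzapine pools wholly above, beside 13.3% of all tested genes, and 7 were called higher by edgeR, beside 1.83%. The part of these markers in the 4 calls was not tested. Serpina6, the corticosteroid-binding globulin that liver secretes, had at most 4.02 normalized counts in any pool.

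Of the response genes that were not called, 2 came closest. Errfi1, an inhibitor of growth factor receptor signalling, had normalized counts of 1186, 1392 and 1322 on control feed, against 1678, 1497 and 1562 on olanzapine feed, a log2 fold change of 0.28 (edgeR, adjusted p = 0.152), with the olanzapine pools above the controls. Per1, a clock gene with strong glucocorticoid induction, had 2823, 3987 and 3094 on control feed, against 3980, 3907 and 4295 on olanzapine feed, a log2 fold change of 0.30 (adjusted p = 0.267), with overlap at control pool 2. Both were chosen after their values were seen, as were those that follow. The 3 genes with a response element match in the promoter window gave log2 fold changes of -0.17 (Fam107a, adjusted p = 0.337), -0.02 (Mt1, adjusted p = 0.953) and 0.53 (Map3k6, adjusted p = 0.465). Fam107a, an actin-binding protein of astrocytes and neurons, had 29510 to 29810 normalized counts on control feed, against 24250 to 28550 on olanzapine feed, with the olanzapine pools wholly below. Of the 26 genes, 1 lay wholly below and 5 wholly above, beside 11% and 13.3% of all tested genes.

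Chaperones of the Hsp90 and Hsp70 families keep the receptors folded so that they can bind hormone. All 8 chaperones and co-chaperones of the list were tested. Of these, 0 were called by edgeR, DESeq2 or limma, beside 2.32%, 5.73% and 1.94% of the genes with an adjusted p in each. In edgeR 0 had an unadjusted p under 0.05, beside 17.6% of all tested genes. The log2 fold changes ran from -0.11 to 0.16 (median 0.08). Bag1, which binds Hsp70 and the receptor, had the smallest p (log2 fold change 0.16, adjusted p = 0.386). Hsp90aa1, the inducible Hsp90, had 42910, 42960 and 46880 normalized counts on control feed, against 40010, 41900 and 41030 on olanzapine feed, with the olanzapine pools wholly below the controls (log2 fold change -0.11, adjusted p = 0.504). Hspa8, the constitutive Hsp70, and Hsph1, which exchanges its nucleotide, had the olanzapine pools wholly above, at 77010 to 79830 against 81890 to 84250 and at 14370 to 16750 against 16820 to 18470. These 3 were chosen after their values were seen, and 1 of 8 below and 2 of 8 above stand beside 11% and 13.3% of all tested genes. Fkbp4, which opposes Fkbp5 on the receptor, differed by 0.07 on the log2 scale (adjusted p = 0.647).

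Coregulators are the proteins through which bound receptors raise or lower transcription. Of 8, 0 were called by edgeR, DESeq2 or limma at an adjusted p under 0.05, beside 2.32%, 5.73% and 1.94% of the genes with an adjusted p in each. In edgeR 4 had an unadjusted p under 0.05, all lower, beside 8.4% of all tested genes in that direction. The 4 were Nrip1, Ep300, Ncoa1 and Ncoa2, all with the olanzapine pools wholly below the controls, as in 11% of all tested genes. Nrip1, a corepressor of nuclear receptors, had the smallest p, with normalized counts of 1089, 1159 and 1159 on control feed, against 989, 896 and 968 on olanzapine feed, a log2 fold change of -0.26 ± 0.08 (SE, edgeR, adjusted p = 0.153). Ncoa1, the coactivator SRC-1, differed by -0.21 on the log2 scale (adjusted p = 0.179). The median of the list was -0.21 and 6 of the 8 were below 0.

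Of 14 genes for the synthesis, inactivation, binding and export of corticosteroids, 7 had enough counts to be tested. Of these, edgeR and limma called 0, beside 2.32% and 1.94% of the genes they tested. DESeq2 called 1, Abcb1a, beside 5.73% of the genes to which it gave an adjusted p. In edgeR, 1 was higher and 1 lower at an unadjusted p under 0.05, beside 9.19% and 8.4% of all tested genes. Abcb1a, the P-glycoprotein of brain endothelium that pumps corticosteroids and many drugs back into the blood, had the smallest p. In normalized counts, the pools stood at 998, 1074 and 822 on control feed, against 831, 469 and 388 on olanzapine feed, a log2 fold change of -0.78 ± 0.26 (SE, adjusted p = 0.182). The overlap came from olanzapine pool 1, and 6 endothelial markers, none at 0, were low in the same 2 pools, with sums of 5294 to 6178 on control feed and of 6156, 3661 and 3219 in olanzapine pools 1 to 3. The part of endothelial RNA in the Abcb1a value was not tested. Cyp11a1, which opens steroid synthesis from cholesterol, had 52.0, 31.6 and 38.7 normalized counts on control feed, against 162, 68.2 and 46.3 on olanzapine feed, with the highest value in olanzapine pool 1 (log2 fold change 1.17, edgeR, adjusted p = 0.255). Star had 27.0, 17.8 and 47.6 against 79.3, 51.4 and 48.3 (log2 fold change 0.95, edgeR, adjusted p = 0.298). It was the 1 of the 7 wholly above, with 0 wholly below, beside 13.3% and 11% of all tested genes. Cyp11b1, Cyp11b2 and Cyp21a1, the later enzymes of corticosterone and aldosterone synthesis, had at most 1.03 normalized counts in any pool.

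Of 10 peptides and receptors of the stress axis, 8 were tested. There were 0 calls from edgeR, DESeq2 or limma, beside 2.32%, 5.73% and 1.94% of the genes with an adjusted p in each. In edgeR 0 had an unadjusted p under 0.05, beside 17.6% of all tested genes. Crh, corticotropin-releasing hormone, had the smallest p. Its normalized counts were 194, 264 and 192 on control feed, against 271, 283 and 297 on olanzapine feed, which lay wholly above the controls, a log2 fold change of 0.39 ± 0.17 (SE, adjusted p = 0.290). Of the 8 tested genes, 1 lay wholly above and 0 wholly below, beside 13.3% and 11% of all tested genes. Crhr2, the receptor by which septal neurons respond to urocortins, differed by -0.31 on the log2 scale (adjusted p = 0.456), with its lowest value in olanzapine pool 1.

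**Figure D4:**
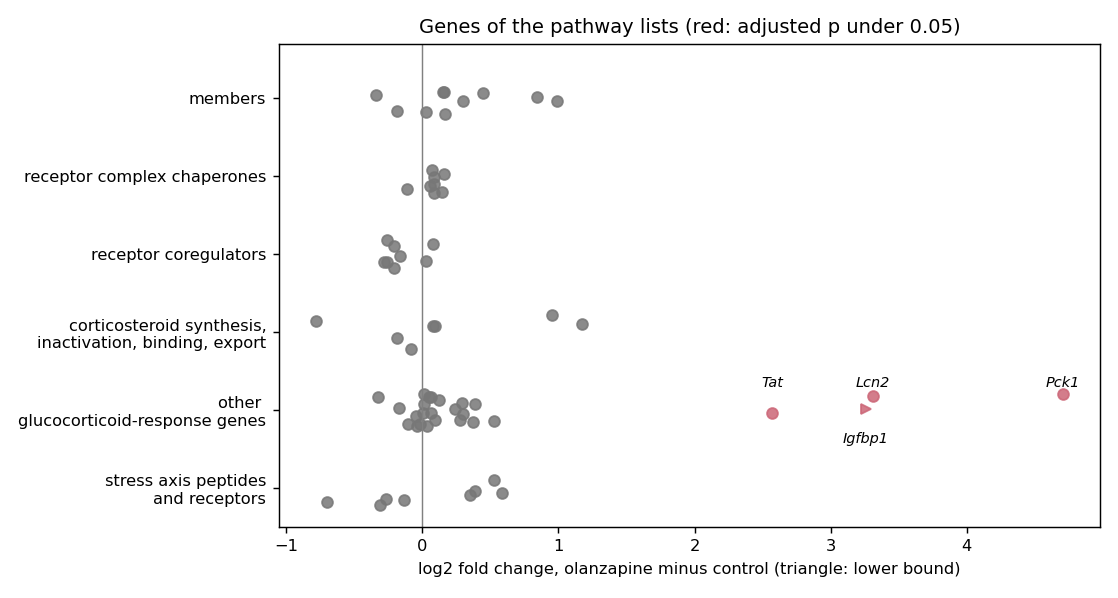
Log2 fold change of every tested gene of the 10 followed genes ("members") and of the 5 pathway lists, olanzapine minus control, with points spread vertically for sight only. Red marks an adjusted p under 0.05, reached by Tat, Lcn2, Pck1 and Igfbp1, and the triangle is the lower bound of Igfbp1. The other genes lie between -0.78 (Abcb1a) and 1.17 (Cyp11a1).

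The labelled tissue was checked against its markers. All 8 lateral septum neuron markers were detected in every pool. The lowest was Crhr2, at 270 normalized counts in olanzapine pool 1. The summed count of 5 nuclear-retained long noncoding RNAs was 70550 to 89750 on control feed, against 175700 to 216100 on olanzapine feed, with 4 of the 5 called higher by edgeR, beside 1.83% of all tested genes. Its part in the results above was not tested. Adipocyte markers, of a tissue in which Plin4 and Pdk4 are abundant, summed to between 2.97 and 14.4 normalized counts per pool, with 1 of the 5 at 0 in all pools.

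**Figure D5:**
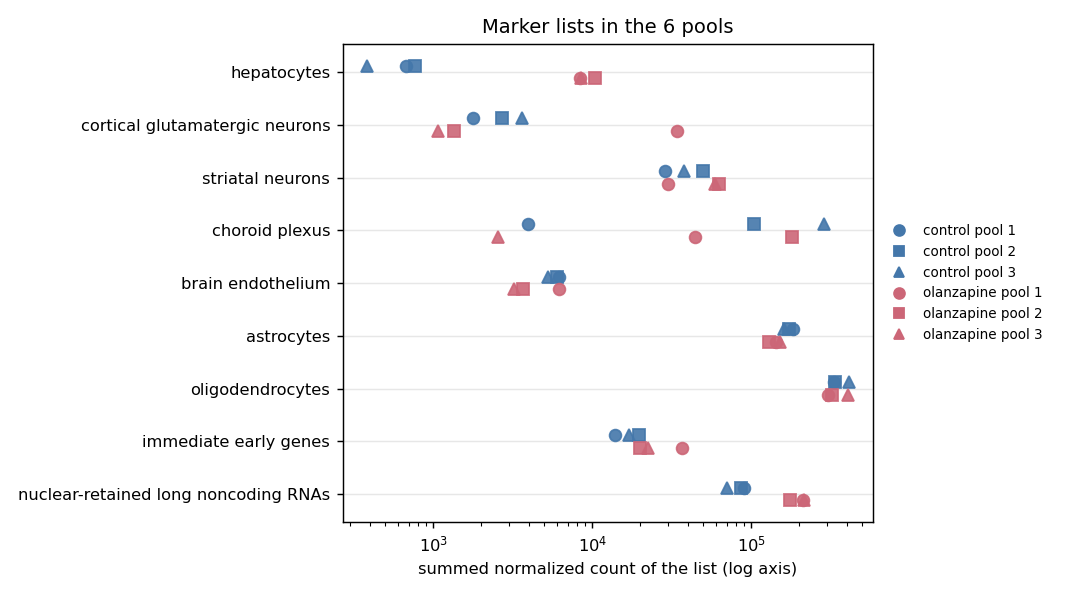
Summed normalized counts of 9 marker lists in each of the 6 pools, on a log axis, control in blue and olanzapine in red. Hepatocyte markers and nuclear-retained long noncoding RNAs separate the groups widely. The groups also do not overlap for immediate early genes, higher on olanzapine feed but nearly meeting, and for astrocyte markers, lower on olanzapine feed. Cortical markers are high in olanzapine pool 1 (34310), and choroid plexus markers are low in control pool 1 (3937) and olanzapine pool 3 (2557).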

How the data were processed

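Septal RNA from 3 control and 3 olanzapine pools was measured by paired-end RNA-seq. The authors trimmed reads with fastp, aligned them with HISAT2 (mm10, per the labels) and counted them per gene with HTSeq, and raw counts per gene are what they deposited. FPKM from those alignments were deposited by the authors too. Versions and the strand setting are not given in the sources used here. All per-sample columns were used (0 unused), and 0 rows lacked a gene name.

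Counts that passed filterByExpr (minimum count 10, minimum total 15) were normalized with TMM and tested with edgeR 4.0.16 in R 4.3.3, by the quasi-likelihood F test on diet alone, with Benjamini-Hochberg adjustment. A normalized count is the count divided by the TMM-scaled library size and multiplied by the mean of these sizes. The standard error is the log2 fold change over the square root of F. Nothing says that the pools of a group came from separate cages or days, so p-values measure the spread between these pools. Replicates of a group differed by far more than counting noise. The floor for a gene at 0 in a group was 3 counts per library. The alternatives were DESeq2 1.42.0, limma 3.58.1 on log2 FPKM with a pseudocount of 1 or 0.1 (mean FPKM from 0.1 up, or unfiltered), RLE and upper-quartile scaling, no count filter or a mean of 50 counts, the replicate number as a block, and leaving out each pool. Offsets for gene length and GC content (lowess span 0.3, known for 92.7% of tested genes) were chosen after seeing the data.

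The 10 genes and all lists were chosen with earlier results of these data known. All 10 are named, and of each pathway list the genes past adjusted p under 0.05 or, with none, the one with the smallest p. Other genes of these lists that are named, such as Ncoa1, Cyp11a1, Crhr2 and Fkbp4, and Npas4 of the markers, were chosen after their values were seen. Coordinates are GENCODE M21 (GRCm38), and sequences are from RefSeq.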

Additional observations from a re-analysis of the deposited data

How the results depend on the processing

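The log2 fold changes of the 10 genes were recomputed under 17 alternatives each, 170 values in all. In 165 the direction and the side of the threshold were kept, in 4 an adjusted p came under 0.05, and in 1, Fkbp5 without olanzapine pool 3, the sign turned (-0.033). The number of the 10 genes past an adjusted p under 0.05 was 0 from edgeR and 2, Zbtb16 and Cdkn1a, with DESeq2 and with no count filter (459 of 26020 genes, or 1.76%), and it stayed at 0 in all fits that left out 1 pool. Nr3c2 kept an unadjusted p under 0.05 in all 17 alternatives and Nr3c1 in 9, with adjusted p from 0.0692 to 0.355 and from 0.124 to 0.479. The number of other response genes called was 4, and it was 2 on genes averaging 50 counts or more and under the replicate block, and 2 to 4 with 1 pool left out. Over all genes, 174 passed both an adjusted p under 0.05 and a fold of 2, and 401 the former alone. With DESeq2 these were 305 and 1093, with the replicate block 86 and 140, and with limma on log2(FPKM + 1) 65 and 337, or 60 and 240 without the filter on low FPKM. Leaving out 1 pool gave 85 to 176 and 131 to 508, lowest without control pool 2 and highest without olanzapine pool 1. The replicate numbers are not stated to pair the pools. Over all tested genes, the deviations of same-numbered pools from their group means correlated at -0.0026, 0.0616 and -0.255. Such correlations cannot tell whether same-numbered pools shared a day or batch. Of the 174, 164 were higher, and of the 401, 316, beside 268 of 305 and 636 of 1093 with DESeq2 and 86 of 86 under the block. The cause of these differences was not tested. With 3 pools per group, log2 differences of the size seen in the receptors had standard errors of 0.08 and 0.10, and the counts of the 10 genes were not thinned to test the part of depth.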
